A study of Mus musculus with 4 samples.

Results

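The insulin-like growth factor (IGF) family was described here across 4 RNA libraries of primary cultured mouse astrocytes. It was taken as 10 genes listed by symbol: the ligands Igf1 and Igf2, the receptors Igf1r and Igf2r, and the binding proteins Igfbp2, Igfbp3, Igfbp4, Igfbp5, Igfbp6 and Igfbp7. These are 10 of the 55487 genes in each table, and all 10 reached a mean of 1 CPM (reads per 1000000 mapped to genes), as 15596 genes did. The 4 groups were OASIS deficient cells with doxorubicin, OASIS wild type cells with doxorubicin, untreated OASIS deficient cells and untreated OASIS wild type cells, with 1 library each. OASIS is the product of Creb3l1, a membrane-bound transcription factor of the endoplasmic reticulum. Doxorubicin, which breaks DNA, was used at 1 µg/ml on cultures 5 days past confluence, which took it for 1 h and were kept 24 h more. The labels do not give the deleted part of the gene, the age of the animals or how many animals each culture came from.

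IGF1 and IGF2 are secreted proteins that signal through the tyrosine kinase receptor IGF1R to the kinases PI3K, AKT and mTOR and to the FOXO transcription factors. IGF2R carries no kinase. It takes IGF2 to lysosomes and also sorts lysosomal enzymes by their mannose 6-phosphate. Most IGF outside the cell is held by binding proteins, which keep it from the receptor until proteases such as PAPP-A cut them. In the brain, astrocytes are known as a source of binding proteins, above all IGFBP2.

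Creb3l1 had 235 reads in the deficient library against 636 in the wild type library with doxorubicin, and 260 against 966 reads in the untreated libraries. Per scaled read its ratio of deficient to wild type was 0.428 (95% interval 0.367 to 0.498) with doxorubicin and 0.311 (0.271 to 0.357) without it. Total counts ran from 17481188 to 22559613, so 3 reads, the limit that a count of 0 allows, equal 0.131 to 0.174 CPM. Astrocyte markers were present in every library, with 9 of 9 at a mean of 1 CPM or more. The summed level of 14 targets of p53, the factor that answers DNA damage, divided the libraries by genotype and not by treatment. It was 989.6 CPM in deficient cells and 5417.3 CPM in wild type cells with doxorubicin, and 937.6 CPM in deficient cells and 4893.8 CPM in wild type cells without it. Xist had 2742 and 2547 reads in the doxorubicin libraries against 0 and 1 in the untreated ones, while Ddx3y, Eif2s3y, Kdm5d and Uty, on the Y chromosome, had 0 reads in each doxorubicin library and 353 to 1567 in the untreated ones. The treatment label and the sex of the cultures therefore cannot be told apart, and the libraries of one genotype did not come from the same animals. With 2 libraries on each side, a p-value rests only on how these 4 samples scatter and on a spread shared across genes. Where treatment is in the model, a difference between the sexes that is the same in both genotypes is not part of that scatter. It belongs to the doxorubicin effect tested, and in the genotype test the treatment term takes it up. A difference between the sexes that depends on genotype stays in the scatter. Since the p53 targets did not divide the libraries by treatment, these data give no check of the treatment label. The libraries are called by their labels, every ratio of doxorubicin to untreated rests on them, and whether they hold was not tested.

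The genes lie on 7 chromosomes (GRCm38, GENCODE). Igf1 spans 87858265 to 87937042 on chromosome 10, and chromosome 7 holds Igf2 at 142650766 to 142666816 and Igf1r at 67952827 to 68233668. Igf2r lies at 12682406 to 12769664 on chromosome 17. Chromosome 11 holds Igfbp3 at 7206086 to 7213923 and Igfbp4 at 99041244 to 99054392, Igfbp6 spans 102144362 to 102149511 on chromosome 15, and Igfbp7 spans 77349240 to 77408041 on chromosome 5. Levels within the family covered a wide range. Igfbp2 stood far above the other members in TPM, a level per transcript length that sums to 1000000 in each library, at 7218.8 and 6718.5 TPM in deficient and wild type cells with doxorubicin and at 6233.7 and 5600.2 TPM in untreated deficient and wild type cells. It ranked 9, 11, 14 and 14 among all genes in those libraries. Igfbp3, Igfbp7, Igf1 and Igfbp5 followed, with means over the libraries of 427.5, 379.6, 106.2 and 102.6 TPM. Igfbp3 was above Igfbp7 in 3 of the 4 libraries and below it in untreated deficient cells. Igf1 and Igfbp5 cannot be set in order, since Igfbp5 was above Igf1 in both deficient libraries and below it in both wild type libraries. Igfbp4, Igfbp6, Igf1r, Igf2 and Igf2r averaged 27.7, 13.4, 10.8, 6.82 and 5.59 TPM. Igfbp6 was above Igf1r in each library although their ranges overlapped. Igf2 was above Igf2r except in untreated wild type cells, and Igf1r lay above Igf2 in 3 of the 4 libraries.

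**Figure D1:**
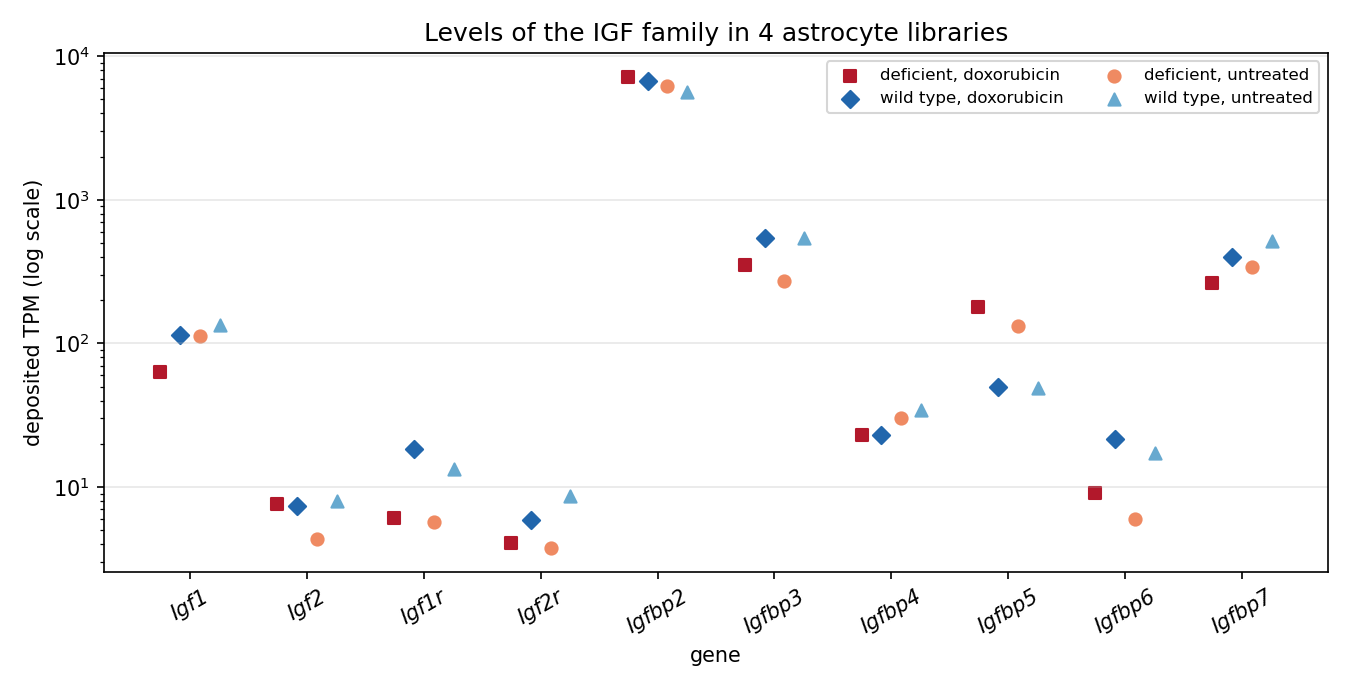
Deposited TPM (log scale) of the 10 family genes in the 4 libraries, 1 point per library. Igfbp2 lies at 5600.2 to 7218.8 TPM in every library, and the points of Igfbp5 separate by genotype, with 179.1 and 132.3 TPM in deficient cells above 49.6 and 49.2 TPM in wild type cells.

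Among the ligands, Igf1, the main agonist of the type 1 receptor, was lower in the deficient library of each pair. It had 60.8 CPM in deficient and 106.6 CPM in wild type cells with doxorubicin, and 103.6 CPM in deficient and 124.8 CPM in wild type cells without it. CPM here is scaled by TMM, a factor that sets most genes equal between libraries. The ratio was 0.570 (0.532 to 0.611) with doxorubicin and 0.831 (0.781 to 0.883) without it, with exact 95% intervals that cover counting error only. Between genotypes such intervals excluded 1 for 76.9% of all genes with doxorubicin and 76.4% without it. Microglia are another known source of IGF1 in such cultures, and 12 of 12 microglial markers were present, none at 0 in any library. Their summed level was 819.3 CPM in deficient and 943.1 CPM in wild type cells with doxorubicin, and 1225.9 CPM in deficient and 1307.2 CPM in wild type cells without it. Like Igf1, it was lowest in deficient cells with doxorubicin and highest in untreated wild type cells. Unlike Igf1, it was higher in untreated deficient cells than in wild type cells with doxorubicin. Of the 12 markers, 8 were lower in deficient cells with doxorubicin and 7 without it. The part of microglia in the result was not tested. In these bulk samples, fewer cells of a type and less RNA per cell cannot be told apart.

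Igf2, the imprinted fetal growth factor, was scarce. Its reads were 101 in deficient and 93 in wild type cells with doxorubicin, and 53 in deficient and 106 in wild type cells without it. In CPM these were 5.11, 4.06, 3.08 and 5.32, so the untreated deficient library was the lowest. The ratio of deficient to wild type was 1.26 (0.939 to 1.68) with doxorubicin, an interval that includes 1, and 0.579 (0.408 to 0.812) without it. Igf1 exceeded Igf2 in TPM by 8.36-fold and 15.4-fold in deficient and wild type cells with doxorubicin, and by 26-fold and 17-fold in untreated deficient and wild type cells. Markers of choroid plexus and ependyma, a known site of IGF2 in brain, were present for 7 of 7 genes, none at 0 in any library, at 244.3, 230.1, 373.4 and 292.4 CPM in the same order of libraries. Most of the highest sum, in untreated deficient cells where Igf2 was lowest, came from the marker Ttr at 272.3 CPM. Ttr was also highest in that library, while the marker Foxj1 was lowest there, at 67.4 CPM. The part of these cells in the level of Igf2 was not tested.

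Among the receptors, Igf1r, the signalling kinase, had 42.8 CPM in deficient and 69.9 CPM in wild type cells with doxorubicin, and 44.7 CPM in deficient and 61.7 CPM in wild type cells without it. Both deficient libraries lay below both wild type libraries. On the read scale the ratios were 0.612 (0.562 to 0.666) with doxorubicin and 0.724 (0.661 to 0.793) without it. On the TPM scale the gap was wider. Igf1r had 6.03 TPM in deficient and 18.3 TPM in wild type cells with doxorubicin, and 5.71 TPM in deficient and 13.3 TPM in wild type cells without it, or log2 ratios of -1.46 and -1.09. The TPM scale itself moved the median of all genes to -0.09 in the doxorubicin pair and to -0.20 in the untreated pair. Relative to those medians Igf1r stood at -1.37 with doxorubicin and at -0.89 without it.

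The ratio of deposited count to deposited TPM was put on a scale of bases with 999 genes of 1 annotated transcript, as an approximate measure of transcript length that is read only between libraries. For Igf1r it was 10065 bases in deficient and 5770 bases in wild type cells with doxorubicin, and 10822 bases in deficient and 7379 bases in wild type cells without it. The ratio of deficient to wild type was 1.74 with doxorubicin and 1.47 without it, and 1.01% and 3.36% of 10636 genes lay as far from 1 in either direction. Igf1r has 1 annotated coding transcript of 11409 bases and 5 annotated transcripts with a retained intron of 733 to 2668 bases. The share of reads given to each transcript is not in these tables. Of the other members with at least 100 reads in every library, this measure gave ratios of 0.875 to 1.03 between genotypes. The base values overshoot, at 7164 to 7201 for Igfbp5 and 10664 to 11008 for Igf2r, whose longest annotated transcripts have 6006 and 8887 bases. They are not lengths in themselves. The measure was added after the count and TPM ratios of Igf1r were seen to differ.

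**Figure D2:**
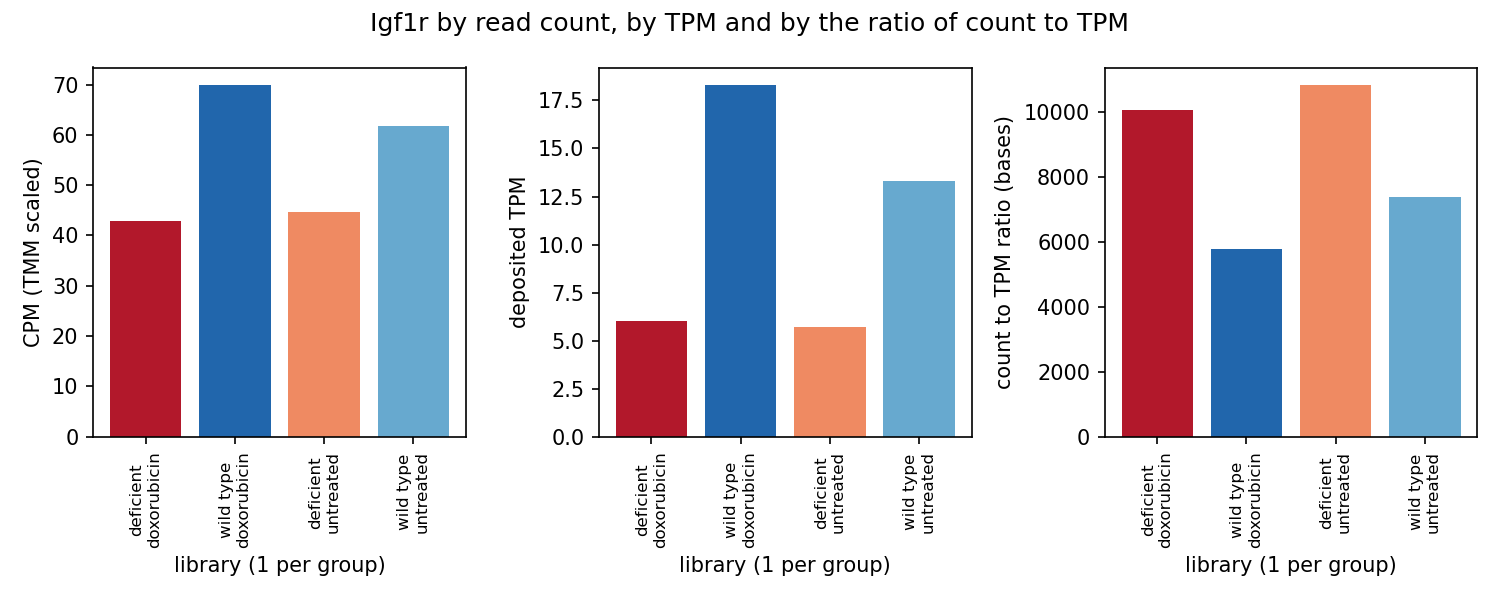
Igf1r in the 4 libraries as scaled read count (CPM, left), as deposited TPM (middle) and as the ratio of count to TPM on a scale of bases (right), 1 bar per library from 0. The deficient bars are lower in CPM and TPM, and taller in the count to TPM ratio, at 10065 and 10822 bases against 5770 and 7379 bases in wild type cells.

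Igf2r, the mannose 6-phosphate receptor that removes IGF2, had 31.4 CPM in deficient and 42.5 CPM in wild type cells with doxorubicin, and 29.7 CPM in deficient and 58.4 CPM in wild type cells without it. The untreated wild type library stood highest and the other wild type library next. The ratio of deficient to wild type was 0.738 (0.666 to 0.817) with doxorubicin and 0.509 (0.458 to 0.565) without it. Airn, on the opposite strand, overlaps Igf2r and had 39, 30, 51 and 66 reads, against 621, 974, 512 and 1164 for Igf2r, and the library kit does not mark strand. The 250 bases before its start site are shown because, of 14 RefSeq promoter windows found for the 10 members, this one alone held TGACGT, the core of the element that CREB family factors, to which OASIS belongs, are known to bind. The run lies on the minus strand at chr17:12769707-12769956 of GRCm38.p6. Capitals mark TGACGT, here on the opposite strand as ACGTCA and starting 52 bases before the start site, and CACGTG, the E-box core, at 48 and 7 bases before it. The first CACGTG overlaps the TGACGT match.
Igf2r: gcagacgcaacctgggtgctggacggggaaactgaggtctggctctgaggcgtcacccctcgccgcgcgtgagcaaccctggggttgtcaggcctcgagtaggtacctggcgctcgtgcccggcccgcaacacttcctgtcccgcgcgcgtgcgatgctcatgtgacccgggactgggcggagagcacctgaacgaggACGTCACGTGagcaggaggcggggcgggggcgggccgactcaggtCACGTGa
Both strands were searched over 300 bases, 250 before and 50 after each start. Of 32851 mouse promoters in the same RefSeq table, 7.51% held TGACGT, 7.15% held CACGTG and 13.6% held TATAAA. The last 2 motifs were added after the sequences were seen. A match describes the letters and says nothing of binding.

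The binding protein genes Igfbp2 and Igfbp5 are neighbours on chromosome 1 that face each other, at 72824503 to 72852474 on the plus strand and at 72857932 to 72874884 on the minus strand (GRCm38, GENCODE). Their 3′ ends lie 5457 bases apart. Igfbp2, which holds IGFs and carries an integrin-binding site, had 5969.2 CPM in deficient and 5369.5 CPM in wild type cells with doxorubicin, and 5265.0 CPM in deficient and 4171.5 CPM in wild type cells without it. The ratio of deficient to wild type was 1.11 (1.10 to 1.12) with doxorubicin and 1.26 (1.25 to 1.27) without it. The deficient library with doxorubicin was the highest and the untreated wild type library the lowest, and between them the wild type library with doxorubicin lay above the untreated deficient one.

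Igfbp5, which binds extracellular matrix as well as IGFs, gave the widest split by genotype. It had 17983 reads in deficient and 5381 reads in wild type cells with doxorubicin, and 11861 reads in deficient and 4438 reads in wild type cells without it. In CPM these were 909.2, 235.0, 689.0 and 222.8, so both deficient libraries stood well above both wild type libraries. The ratio was 3.87 (3.75 to 3.99) with doxorubicin and 3.09 (2.99 to 3.20) without it. Oligodendrocyte lineage markers, at 10 of 10 present, were higher in the same libraries, at 829.1 CPM in deficient and 219.8 CPM in wild type cells with doxorubicin, and 809.4 CPM in deficient and 304.7 CPM in wild type cells without it. Of these markers 0, 3, 0 and 1 had no read in the 4 libraries, and their part in the result was not tested.

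The upstream sequences of this pair are shown to set the gene with the widest split beside the neighbour that moved little. Both come from RefSeq (GRCm38.p6). The Igfbp5 run lies on the minus strand at chr1:72874866-72875115 and holds none of the 3 motifs. The Igfbp2 run, from the first of 2 RefSeq start sites, lies on the plus strand at chr1:72824230-72824479, with a CACGTG in capitals 142 bases before the start.
Igfbp5: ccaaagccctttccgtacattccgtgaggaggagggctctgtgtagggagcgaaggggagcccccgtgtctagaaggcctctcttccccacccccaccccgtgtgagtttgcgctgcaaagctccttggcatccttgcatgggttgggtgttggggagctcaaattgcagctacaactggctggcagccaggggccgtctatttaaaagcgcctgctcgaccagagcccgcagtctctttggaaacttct
Igfbp2: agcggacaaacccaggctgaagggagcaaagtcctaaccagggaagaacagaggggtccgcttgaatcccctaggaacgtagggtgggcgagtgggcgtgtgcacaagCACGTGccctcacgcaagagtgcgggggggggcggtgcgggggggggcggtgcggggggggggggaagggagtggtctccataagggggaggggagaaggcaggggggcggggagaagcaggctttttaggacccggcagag
Over the 300-base windows the share of G and C was 56.3% for Igfbp5 and 67% for Igfbp2, where the quartiles of all promoters were 45.7% and 61.7%.

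Igfbp3, the main serum carrier of IGFs and in human cells a reported target of p53, was lower in deficient cells. It had 593.3 CPM in deficient and 868.0 CPM in wild type cells with doxorubicin, and 479.3 CPM in deficient and 818.2 CPM in wild type cells without it. The ratio was 0.684 (0.668 to 0.699) with doxorubicin and 0.586 (0.570 to 0.602) without it. In the wild type pair the doxorubicin library stood at 1.06 times the untreated one (1.04 to 1.08). The summed p53 targets were 5417.3 and 4893.8 CPM in those libraries, and a tie of Igfbp3 to p53 was not tested.

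Igfbp6, which prefers IGF2 over IGF1, was low in level and lower still in deficient cells. It had 124 reads in deficient and 330 reads in wild type cells with doxorubicin, and 73 reads in deficient and 214 reads in wild type cells without it. The ratio was 0.435 (0.351 to 0.536) with doxorubicin and 0.395 (0.298 to 0.517) without it, and no deficient library reached a wild type one. Its upstream run is shown as that of the member with the lowest ratios. It lies on the plus strand of chromosome 15 at chr15:102143936-102144185 (RefSeq, GRCm38.p6), and capitals mark a TATAAA on the opposite strand, 148 bases before the start.
Igfbp6: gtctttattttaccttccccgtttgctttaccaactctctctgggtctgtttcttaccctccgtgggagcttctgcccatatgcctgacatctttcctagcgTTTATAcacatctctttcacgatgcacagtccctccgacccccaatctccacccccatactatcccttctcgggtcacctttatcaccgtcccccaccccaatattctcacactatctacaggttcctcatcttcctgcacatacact
Igfbp4 was the other member with a TATAAA, 28 bases before its start.

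Igfbp7, which binds IGFs only weakly, had 169.3 CPM in deficient and 248.4 CPM in wild type cells with doxorubicin, and 223.9 CPM in deficient and 297.9 CPM in wild type cells without it. The ratio was 0.682 (0.653 to 0.712) with doxorubicin and 0.752 (0.722 to 0.783) without it. Igfbp7 is known from blood vessels, and 4 of 10 markers of endothelium and pericytes reached 1 CPM. The sum of all 10 was 8.14 CPM in deficient and 22.5 CPM in wild type cells with doxorubicin, and 10.2 CPM in deficient and 19.9 CPM in wild type cells without it. Like Igfbp7, it was lower in the deficient library of each pair, as were all 4 markers that reached 1 CPM. Among the scarcer markers, Cdh5 and Vtn went the other way in both pairs. Cdh5 had 7 reads in each deficient library and Vtn had 10 with doxorubicin and 9 without it. Both had 0 reads in the wild type libraries. Of these 10 markers 3, 3, 5 and 3 had no read, and their part in the result was not tested. Polr2b overlaps Igfbp7 and had 1556, 1740, 1170 and 1547 reads, and reads from a shared stretch cannot be told apart without strand.

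Igfbp4, an inhibitory binding protein that PAPP-A cuts, was near equal between genotypes. It had 31.4 CPM in deficient and 32.4 CPM in wild type cells with doxorubicin, and 45.5 CPM in deficient and 44.4 CPM in wild type cells without it. Both intervals included 1, at 0.870 to 1.08 with doxorubicin and 0.931 to 1.13 without it. It divided by treatment instead, with both doxorubicin libraries below both untreated ones. Igfbp1, the liver binding protein, had 0 reads in all 4 libraries, which allows up to 0.174 CPM.

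A gene was called by size when its level differed at least 2-fold between 2 libraries, as log2 of CPM with 1 CPM added, which understates the change of low genes. By this rule 2 of 10 members differed between genotypes in the doxorubicin pair, where 20.3% of all genes did, and 2 of 10 in the untreated pair, where 20.0% did. They were Igfbp5 (log2 1.95 with doxorubicin and 1.62 untreated) and Igfbp6 (-1.08 and -1.16). That share is near the background. At 5 CPM added in place of 1, Igfbp6 missed the threshold in both pairs, and Igf2r, at -0.95 in the untreated pair, passed it under scaling by total counts. On TPM, Igf1r passed it in both pairs and Igf2r in the untreated one, but relative to the medians of all genes given above Igf1r stood past it only in the doxorubicin pair and Igf2r, at -0.83, no longer did. The family's median log2 ratio was -0.49 with doxorubicin and -0.43 untreated, beside 0.02 and -0.03 for all genes.

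**Figure D3:**
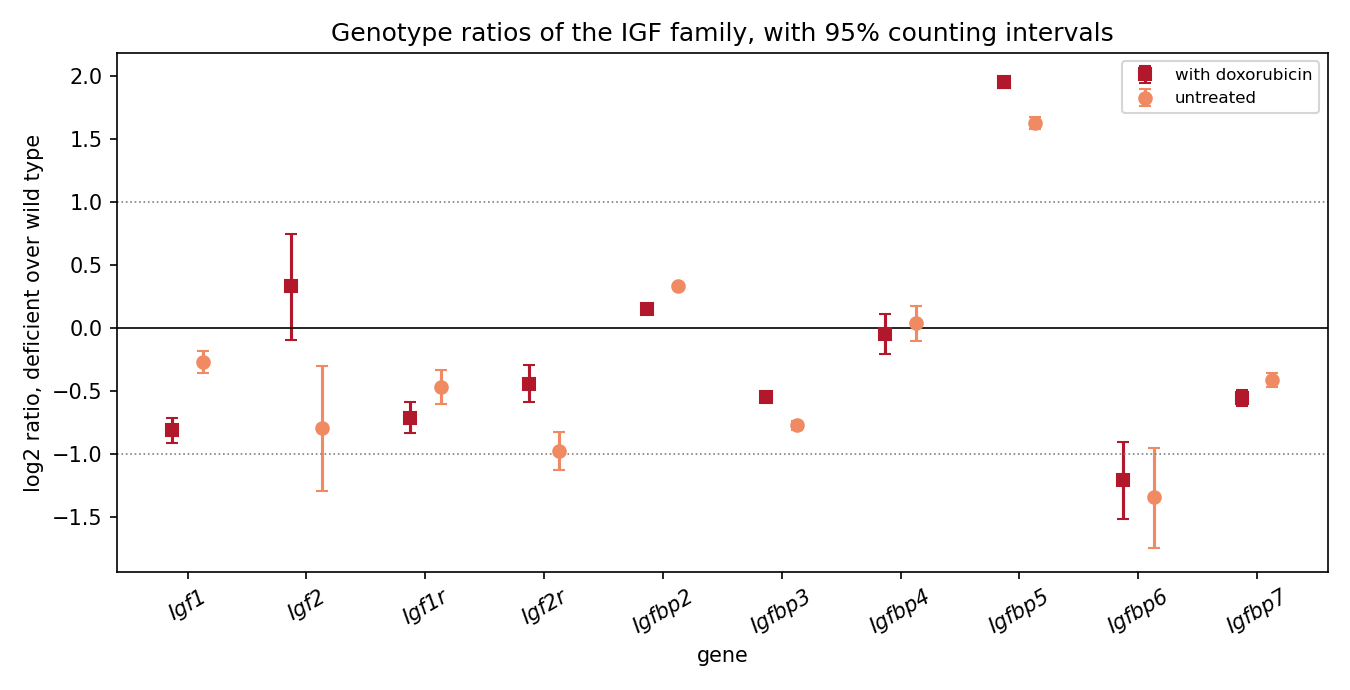
Log2 ratio of scaled counts, deficient over wild type, for each member with doxorubicin and untreated, with nothing added to the counts. Bars are exact 95% counting intervals and dotted lines mark 2-fold. Igfbp5 lies above the upper line in both pairs, 6 members lie below 0 in both, and the points of Igf2 and of Igfbp4 lie on opposite sides of 0.

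The genotype term of edgeR's quasi-likelihood test over all 4 libraries, with treatment as an additive term, called 8 of 10 members at a Benjamini-Hochberg adjusted p of at most 0.05, where 23.2% of the 15596 genes were called. Of the members, 2 were higher in deficient cells, where 12.6% of all genes were, and 6 were lower, where 10.6% were. The higher members were Igfbp5 (log2 1.79 ± 0.111 SE, adjusted p 1.24e-08) and Igfbp2 (0.24 ± 0.0673, adjusted p 0.0151). The lower members were Igfbp3 (-0.66 ± 0.0983, adjusted p 0.000143), Igfbp7 (-0.48 ± 0.117, 0.00709), Igf1 (-0.54 ± 0.162, 0.0251), Igf2r (-0.71 ± 0.226, 0.0333), Igf1r (-0.59 ± 0.190, 0.0348) and Igfbp6 (-1.27 ± 0.442, 0.0493). Igf2 (-0.22 ± 0.671, adjusted p 0.857) and Igfbp4 (adjusted p 0.993) were not called. Igfbp3 and Igfbp5 were called under every alternative run. DESeq2 did not call Igf1, Igf1r, Igf2r or Igfbp6 (adjusted p 0.0548, 0.0809, 0.0715 and 0.114), nor did edgeR without a minimum level (0.0658, 0.0737, 0.07 and 0.0984). Without the treatment term edgeR called 3 members, Igf1r, Igfbp3 and Igfbp5. Of all genes tested, DESeq2 called 18.9%, edgeR without a minimum level 9.67% and edgeR without the treatment term 18.0%. At a minimum of 5 CPM edgeR called the same 8 members as in the main test, where 32.3% of all genes were called. The model has 1 residual degree of freedom, which also holds any dependence of the response on genotype.

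Other measures moved with genotype in the same libraries. Summed astrocyte markers were 9704.1 CPM in deficient and 3745.7 CPM in wild type cells with doxorubicin, and 10997.5 CPM in deficient and 3855.5 CPM in wild type cells without it. Gfap, the astrocyte filament protein, carried most of that gap, at 5167.8 CPM in deficient and 1119.8 CPM in wild type cells with doxorubicin, and 6588.7 against 1140.3 CPM without it. The genotype term called 7 of the 9 markers higher, at a list median log2 of 0.67, and did not call Aldh1l1 (0.25, adjusted p 0.107) or Gja1 (0.05, adjusted p 0.798). Summed neuron markers were 433.4 CPM in deficient and 199.5 CPM in wild type cells with doxorubicin, and 406.2 CPM in deficient and 223.5 CPM in wild type cells without it. Of 7 such markers 6 reached 1 CPM and 4 were called higher (list median 1.37), and 0, 2, 0 and 3 had no read in the 4 libraries. Dcx, a microtubule protein of young neurons, had 237 reads in deficient and 0 in wild type cells with doxorubicin, and 70 against 0 without it. All 10 mitosis genes had a mean of 1 CPM or more, although Aurkb had 0 reads in both wild type libraries. Their sum was 1225.0 CPM in deficient and 62.0 CPM in wild type cells with doxorubicin. Without it the sum was 813.5 CPM in deficient and 46.6 CPM in wild type cells. The part of these, and of the p53 targets above, in the family's genotype differences was not tested. Markers of fibroblasts and meninges, another known site of IGF family genes, did not follow genotype, at 283.9 CPM in deficient and 201.9 CPM in wild type cells with doxorubicin, and 319.3 CPM in deficient and 379.2 CPM in wild type cells without it. Of these, 7 of 9 reached 1 CPM and Slc22a6 had no read in any library.

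Between doxorubicin and untreated libraries no member differed 2-fold. The size rule called 0 of 10 members in wild type cells, where it called 9.53% of all genes, and 0 of 10 in deficient cells, where it called 3.51%. The lowest ratio of doxorubicin to untreated was that of Igf1 in deficient cells, 0.586 (0.545 to 0.631), against 0.854 (0.807 to 0.904) in wild type cells. Igfbp4 was 0.690 (0.620 to 0.768) in deficient and 0.731 (0.662 to 0.807) in wild type cells. Igfbp7 was 0.756 (0.722 to 0.792) in deficient and 0.834 (0.804 to 0.865) in wild type cells. These 3 were the members whose intervals lay below 1 in both genotypes.

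Above 1 in both genotypes lay Igfbp2, Igfbp3, Igfbp5 and Igfbp6. Igfbp6 was 1.48 (1.10 to 2.00) in deficient and 1.34 (1.13 to 1.60) in wild type cells. Igfbp5 was 1.32 (1.29 to 1.35) in deficient and 1.05 (1.01 to 1.10) in wild type cells. Igfbp3 was 1.24 (1.20 to 1.27) in deficient and 1.06 (1.04 to 1.08) in wild type cells, and Igfbp2 was 1.13 (1.12 to 1.14) in deficient and 1.29 (1.28 to 1.30) in wild type cells. Counting error alone is small at this depth, since such intervals excluded 1 for 53.1% of all genes in deficient and 69.4% in wild type cells. The intervals leave out error of scaling. On TPM the log2 ratios in wild type cells were 0.01 for Igfbp5 and 0.02 for Igfbp3, and 0.26 for Igfbp2 and 0.31 for Igfbp6.

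The other 3 members did not move alike in both genotypes. Igf2r was 1.06 (0.938 to 1.19) in deficient and 0.728 (0.668 to 0.793) in wild type cells. Igf1r was 0.957 (0.867 to 1.06) in deficient and 1.13 (1.05 to 1.22) in wild type cells. Igf2 was 1.66 (1.18 to 2.36) in deficient and 0.763 (0.571 to 1.02) in wild type cells. Its difference of log2 ratios, deficient minus wild type, depends on what is added to its low counts, at 1.12 with nothing added, 0.90 with 1 CPM added and 0.51 with 5 CPM added. With 5 CPM added it did not stand apart from Igf1 at -0.51 or Igf2r at 0.48. With 1 CPM added no member reached 1 in either direction, where 1194 genes did upward and 943 downward on that scale. With 1 library per group these differences have no test.

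The doxorubicin term of the same edgeR model called 0 of 10 members and 25 of 15596 genes, or 0.16%. At an unadjusted p under 0.05, which 864 genes or 5.54% had, there were 5 members: Igf1 (log2 -0.50, p 0.00789, adjusted p 0.646), Igfbp2 (0.27, p 0.00101, adjusted p 0.218), Igfbp4 (-0.49, p 0.039, adjusted p 0.868), Igfbp5 (0.24, p 0.0415, adjusted p 0.875) and Igfbp7 (-0.33, p 0.0123, adjusted p 0.732). DESeq2 also called 0 members, and limma-voom called 1, Igfbp2 (adjusted p 0.000202). Of the 12 microglial markers 1 was called lower with doxorubicin, where 0.16% of all genes were called, and 8 had an unadjusted p under 0.05, where 5.54% did. Both their summed level and Igf1 were lower in the doxorubicin library of each genotype, and the part of microglia in the level of Igf1 was not tested.

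Summed over the binding protein genes, Igfbp1 to Igfbp7, the pool was 8044.7 TPM in deficient and 7758.1 TPM in wild type cells with doxorubicin, and 7015.1 TPM in deficient and 6756.1 TPM in wild type cells without it. It made up 0.804%, 0.776%, 0.702% and 0.676% of all TPM. Igfbp2 alone held 89.7% and 86.6% of it with doxorubicin in deficient and wild type cells, and 88.9% and 82.9% without. In CPM, which is not per length, the Igfbp2 share was 77.7% and 79.3% with doxorubicin in deficient and wild type cells, and 78.5% and 75% without, so the order of the genotypes turned in the doxorubicin pair. Without Igfbp2 the pool was 825.8 TPM in deficient and 1039.6 TPM in wild type cells with doxorubicin, and 781.4 TPM in deficient and 1155.9 TPM in wild type cells without it. The lower sum in deficient cells holds on TPM alone. In CPM, where Igfbp5 weighs more, the sum was higher in deficient cells, at 1709.5 CPM against 1398.2 CPM in wild type cells with doxorubicin and at 1442.0 against 1394.0 CPM without it.

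Within that rest the composition differed as well. In TPM, Igfbp3 exceeded Igfbp5 by 1.96-fold in deficient and 11.0-fold in wild type cells with doxorubicin. Without it the excess was 2.07-fold in deficient and 11.0-fold in wild type cells. In CPM the order turned in deficient cells, with Igfbp5 at 909.2 against 593.3 CPM for Igfbp3 with doxorubicin and 689.0 against 479.3 CPM without it. It held in wild type cells. By TPM, Igfbp5 made up 2.23% of the whole pool in deficient and 0.64% in wild type cells with doxorubicin, and 1.89% in deficient and 0.728% in wild type cells without it. Igfbp3 made up 4.37% in deficient and 7.04% in wild type cells with doxorubicin, and 3.89% in deficient and 7.98% in wild type cells without it. Set against the ligands, whose summed level was 71.4 TPM in deficient and 121.3 TPM in wild type cells with doxorubicin and 116.2 TPM in deficient and 143.3 TPM in wild type cells without it, the pool was 112.7, 64.0, 60.4 and 47.2 times as high. These are RNA levels per length in single libraries, without a test.

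**Figure D4:**
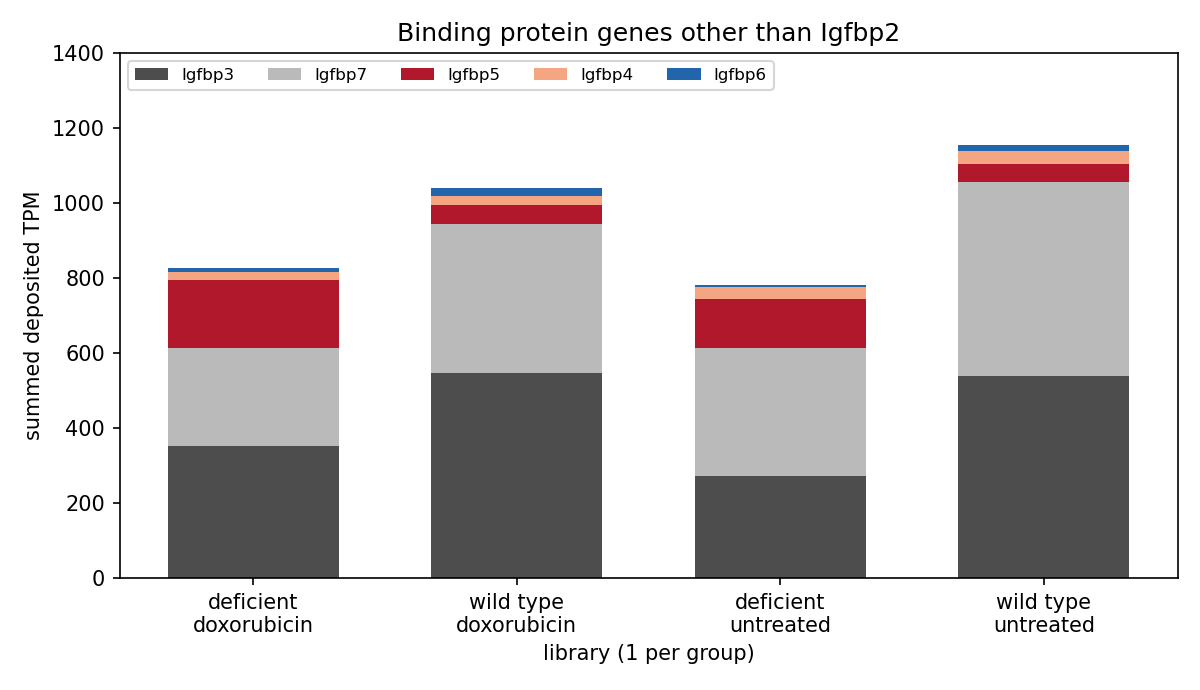
Summed deposited TPM of the binding protein genes other than Igfbp2, stacked by gene, 1 bar per library. The deficient bars reach 825.8 and 781.4 TPM and the wild type bars 1039.6 and 1155.9 TPM, with a larger Igfbp5 block and smaller Igfbp3 and Igfbp7 blocks in the deficient libraries.

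For the member with the widest range over the libraries, Igfbp5, the genes most alike in pattern were sought among 11234 named protein-coding genes with a mean of at least 5 CPM. Likeness was the Euclidean distance between centred log2 levels over the 4 libraries. The nearest were Cdkn2c, a cell cycle inhibitor (distance 0.051), Smc4, a condensin subunit (0.084), and Fam111a, a protease (0.10). Cdkn2c had 76.3 CPM in deficient and 18.6 CPM in wild type cells with doxorubicin, and 58.5 CPM in deficient and 17.5 CPM in wild type cells without it. For Igfbp2, the most abundant member, the nearest were Srp19, a part of the signal recognition particle (0.016), Ndrg3 (0.021) and Arl6, a small GTPase (0.027). With 4 points such likeness is a description only.

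The genes around the family were taken from 4 lists. Among binding and release partners, 8 of 13 genes reached 1 CPM, and edgeR's genotype term called 3 of them lower in deficient cells, or 37.5% where 10.6% of all genes were, and 0 higher. Stc2, an inhibitor of PAPP-A, had 5 reads in deficient and 102 reads in wild type cells with doxorubicin, and 6 against 64 without it (log2 -3.64, adjusted p 0.0245). Htra1, a protease that cuts binding proteins, had 283.2 CPM in deficient and 343.0 CPM in wild type cells with doxorubicin, and 224.1 against 357.0 CPM without it (-0.47, adjusted p 0.0097). Crim1, a membrane protein with an IGF-binding motif, had 104.1 CPM in deficient and 183.5 CPM in wild type cells with doxorubicin, and 76.2 against 174.2 CPM without it (-1.0, adjusted p 9.88e-05). Pappa itself was at 9.10 CPM in deficient and 14.0 CPM in wild type cells with doxorubicin, and at 9.18 against 13.6 CPM without it (adjusted p 0.306). By size, Stc2 was lower in both pairs and Crim1 in the untreated pair, and the related protease Htra3 was higher with doxorubicin, at 258 reads in deficient against 69 in wild type cells (log2 1.81). Htra3 was also lower by size with doxorubicin than without it in wild type cells, at 69 against 165 reads (-1.21). The list's median log2 ratio between genotypes was -0.42 with doxorubicin and -0.59 untreated.

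The CCN family carries a domain like that of the binding proteins, and 5 of its 6 genes reached 1 CPM. Of these 3 were called higher in deficient cells and 1 lower, or 80.0% in either direction where 23.2% of all genes were. Ccn5 had 377.0 CPM in deficient and 103.7 CPM in wild type cells with doxorubicin, and 353.6 against 103.9 CPM without it (log2 1.81, adjusted p 2.5e-08). Ccn2, a matrix protein induced by stretch and TGF-beta, had 1340.0 CPM in deficient and 542.7 CPM in wild type cells with doxorubicin, and 1341.6 against 746.9 CPM without it (1.07, adjusted p 2.27e-06). Ccn1 was higher by 0.64 (adjusted p 4.78e-05) and Ccn4 lower, at -0.74 (adjusted p 0.0443). By size, Ccn5 was called in both pairs and Ccn2 in the doxorubicin pair. The list's median was 0.63 with doxorubicin and 0.65 untreated.

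Of 28 further receptors and signalling genes 26 reached 1 CPM, of which 1 was called higher and 2 lower in deficient cells, or 11.5%, below the 23.2% of all genes. Foxo3 had 19.9 CPM in deficient and 51.6 CPM in wild type cells with doxorubicin, and 24.3 against 46.6 CPM without it (-1.16, adjusted p 0.00199). Foxo1 had 90.1 CPM in deficient and 135.0 CPM in wild type cells with doxorubicin, and 85.5 against 136.3 CPM without it (-0.63, adjusted p 0.00414). Both encode transcription factors that AKT holds out of the nucleus. The adaptor Irs4 had 85 reads in deficient and 0 in wild type cells with doxorubicin, at least 32.8-fold higher against a floor of 3 reads in that library, and 36 against 5 reads without it (adjusted p 0.0307, or 0.0801 without a minimum level). By size, Irs4 was higher in both pairs and Foxo3 lower in the doxorubicin pair. Insr, Irs1, Irs2, Akt1, Akt2 and Mtor were not called (adjusted p 0.397, 0.9, 0.0817, 0.841, 0.847 and 0.839). The list's median was 0.07 with doxorubicin and -0.14 untreated.

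Of 8 genes tied to Igf2 RNA or to imprinting 7 reached 1 CPM, and 1 was called, or 14.3% beside the same 23.2%. H19, the imprinted RNA beside Igf2, had 284 reads in deficient and 11 in wild type cells with doxorubicin, and 117 against 30 without it. Its ratio was 29.9 (16.5 to 60.6) with doxorubicin and 4.51 (3.0 to 6.98) without it (additive log2 3.46, adjusted p 0.00286), while Igf2 in the same pairs had ratios of 1.26 and 0.579. Igf2bp1, which binds Igf2 RNA, was lower by size in both pairs, at 48 against 156 reads with doxorubicin and 57 against 187 reads without it in deficient against wild type cells (adjusted p 0.0716). Cdkn1c, an imprinted cell cycle inhibitor, was lower by size with doxorubicin (-1.38; 98 reads in deficient against 333 in wild type cells), and in wild type cells it was higher by size with doxorubicin than without it (1.18). The list's median was 0.15 with doxorubicin and -0.12 untreated. With the doxorubicin term edgeR called 0 genes in each of the 4 lists, where 0, 1, 1 and 1 had an unadjusted p under 0.05, as 5.54% of all genes did. DESeq2 and limma-voom also called 0 in each.

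**Figure D5:**
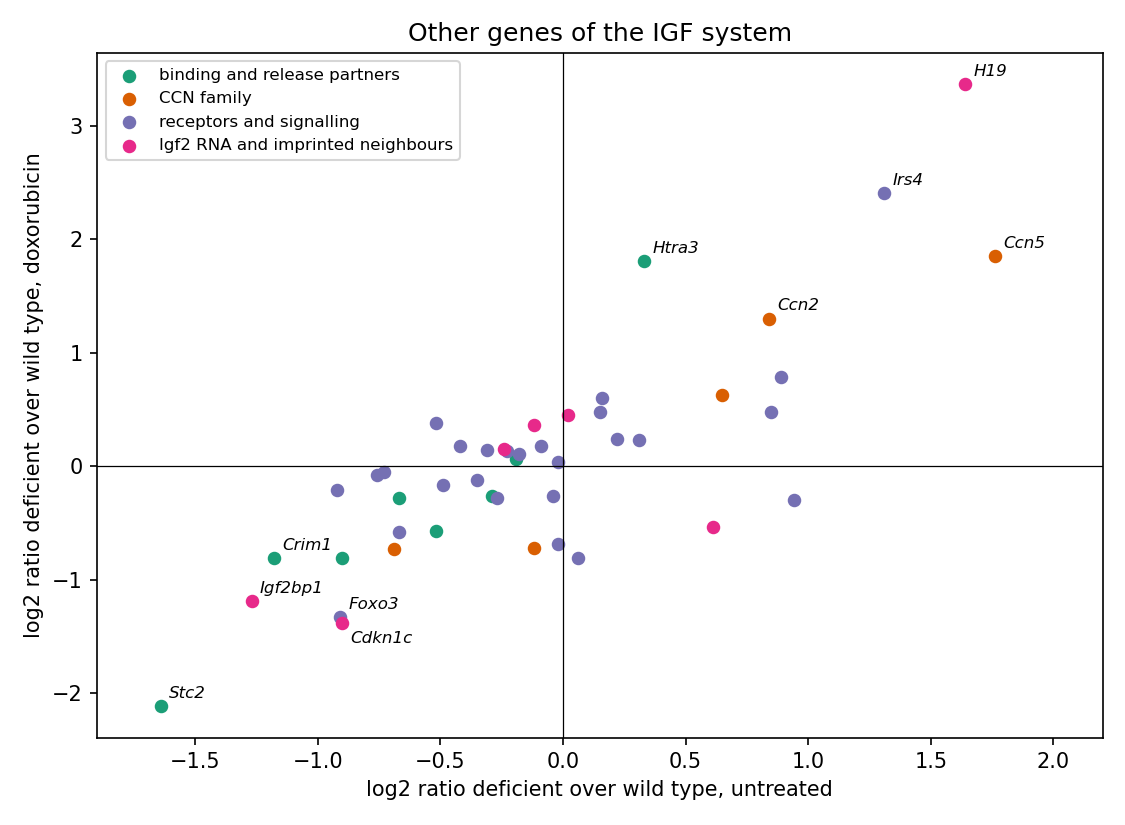
Log2 ratio deficient over wild type (CPM plus 1), untreated on the horizontal axis and with doxorubicin on the vertical axis, for the genes of the 4 lists that reached 1 CPM, 1 point per gene. Genes past 2-fold in either pair are named, with H19 at 1.64 and 3.37 in the upper right and Stc2 at -1.64 and -2.12 in the lower left.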

How the data were processed

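RNA was sequenced from 4 samples of primary cultured mouse astrocytes. Per the labels' protocols the libraries came from the SMART-Seq v4 kit, whose reads carry no strand information. The authors deposited, per the file headers, an estimated count and a TPM value for each gene and library. Per the submitters' processing notes the names on record are DRAGEN and GRCm38. The version, the annotation release and any filter on reads were not given in the sources used here. Estimated counts, as deposited, held fractions in 5810 to 6451 genes per library and were rounded to whole numbers. The deposited TPM values, which sum to 1000000 per library, were used to compare levels between genes and as an alternative scale.

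Gene identifiers were matched without version to GENCODE vM21, where 55227 of 55487 matched. Counts were scaled with TMM factors of 0.981 to 1.02. Single libraries were compared as log2 of CPM plus 1, without a test, with exact conditional binomial 95% intervals; reads carry no molecular identifiers, so counting error is all that intervals and floors cover. Genotype and treatment were tested in 1 additive model over 15596 genes with edgeR 4.0.16 (quasi-likelihood, common dispersion 0.0863, 14.3 prior degrees of freedom), tested on simulated data. DESeq2 1.42.0, limma 3.58.1 (voom), other scalings, pseudocounts of 0.5 and 5 CPM, other minimum levels and TPM were the alternatives, and a 1.5-fold threshold, the count to TPM ratio, differences of responses with nothing added and the pool in CPM were added after seeing the data. R was 4.3.3 and Python 3.11.15.

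The members and lists were chosen with earlier results of these data known. All members are named. From each list the genes called by size or by an additive test are named, and at most 6 per list and comparison, beside Creb3l1 and the 3 genes most like Igfbp5 and like Igfbp2. Pappa and 6 signalling genes that were not called were added after their values were seen. Upstream sequences came from RefSeq (GRCm38.p6), where all 10 members had a window.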

Additional observations from a re-analysis of the deposited data

How the results depend on the processing

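Each group holds 1 library, so leaving out a library leaves no residual degree of freedom, and the single-library ratios above are then the only values. No paired analysis was possible because titles are numbered by treatment and not by replicate. With counts of 73 to 330 for Igfbp6 and 53 to 106 for Igf2, depth limits these 2 members most.

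Genes 2-fold apart between genotypes numbered 3160 with doxorubicin and 3115 untreated. With 5 CPM added they numbered 1490 and 1406, and at a minimum of 5 CPM 1961 and 1895. On TPM the untreated calls divided into 1221 higher and 2095 lower, against 1527 and 1588 on counts. Family members called, 2 in each pair, numbered 1 in each with 5 CPM added. They numbered 4 on TPM untreated, where 3316 genes were called and the median log2 ratio of all genes was -0.20. At 1.5-fold they numbered 4 with doxorubicin and 5 untreated, with no share of all genes to set beside them. Between doxorubicin and untreated wild type cells 1486 genes were called, against 226 with 5 CPM added, 609 at a minimum of 5 CPM and 2259 without a minimum. In deficient cells 547 were called, against 863 with 0.5 CPM added, 42 with 5 CPM added and 184 at a minimum of 5 CPM. The doxorubicin responses of 2137 genes differed by at least 1 between genotypes, against 480 with 5 CPM added. The additive doxorubicin test called 25 genes, against 78 with DESeq2 size factors, 12 without a minimum, 99 at a minimum of 5 CPM, 84 with limma-voom and 0 without the genotype term (100 at an unadjusted p under 0.05). Without the treatment term the genotype test did not call Igf1 (adjusted p 0.2), Igf2r (0.0554), Igfbp2 (0.237), Igfbp6 (0.0718) or Igfbp7 (0.0783). Irs4 was not called without a minimum (0.0801) or without the treatment term (0.0526). Cdkn1c and Igf2bp1 were called at a minimum of 5 CPM (0.0417 and 0.0299) and with limma-voom (0.0294 and 0.0492). The causes of these shifts were not tested. No value that was called changed its direction under the alternatives run.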
